A study of Homo sapiens with 12 samples.

Results

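Epithelial keratins were followed through DOT1L inhibition and DOT1L silencing in MDA-MB231, a mesenchymal-like breast cancer cell line that lacks the estrogen receptor. The 10 genes were KRT7, KRT8, KRT80, KRT81 and KRT86 (type II) and KRT10, KRT15, KRT17, KRT18 and KRT19 (type I), and their probes were every probe of the Illumina HT-12 v4 array annotated to these symbols or their older names. Of the 10 genes, 7 had an annotated probe, with 9 probes of the 47322 on the array between them. KRT81, KRT86 and KRT17 had none and were not analysed here. KRT18 and KRT80 had 2 probes each and the other genes 1.

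RNA was measured on 12 arrays in 6 groups of 2, which the labels call biological replicates. The p-values therefore rest on the spread between the 2 cultures of a group, estimated over all 6 groups together. The control was 0.1% DMSO for 14 days. Cells received compound 1 (EPZ004777) at 1 or 5 μM, or compound 2 (SYC-522) at 2 or 10 μM, both small-molecule inhibitors of the methyltransferase DOT1L, for 14 days, or siRNA-1 against DOT1L at 10 nM for 7 days. The groups used here hold no control siRNA, so silencing, transfection and the shorter culture cannot be told apart in siRNA-1, and no dose of compound 1 matched a dose of compound 2.

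Keratins are the intermediate filament proteins of epithelial cells. A type I and a type II keratin join as a heterodimer, and these dimers build filaments that are anchored at desmosomes between cells and at hemidesmosomes on the basement membrane. KRT8 and KRT18 form the pair of simple epithelia such as the luminal layer of the breast, with KRT7 and KRT19 added in ducts and glands. KRT10 belongs to differentiating epidermis and KRT15 to basal cells of stratified epithelia. In cells with a mesenchymal character vimentin usually dominates, and keratins are often low. KRT7, KRT8, KRT18 and KRT80 lie on chromosome 12, and KRT10, KRT15 and KRT19 on chromosome 17.

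The RefSeq promoter table held 1 of the genes that changed, KRT10, and the bases before its start site are shown because KRT10 was the member whose level fell with the inhibitors and not with siRNA-1. The window is the 250 bases at chr17:40822615-40822864 (GRCh38.p14, minus strand, 5′ to 3′), with motif matches in capitals.
KRT10: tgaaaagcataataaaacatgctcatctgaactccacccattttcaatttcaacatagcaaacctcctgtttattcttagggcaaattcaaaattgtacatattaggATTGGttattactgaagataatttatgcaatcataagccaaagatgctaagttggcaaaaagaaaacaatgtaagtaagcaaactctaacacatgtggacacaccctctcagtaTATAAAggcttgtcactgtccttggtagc
The search on both strands was for TATAAA (the TATA box), for CCAAT, for GGGCGG (a site known for the factor SP1), for TGANTCA (known for AP-1 factors) and for CACCTG (known for SNAIL and ZEB factors). TATAAA was found at bases -29 to -24 from the start site and the reverse complement of CCAAT at -143 to -139. TATAAA was in 10.7% of all 35116 windows of that length and CCAAT in 32.0%. The matches describe the letters only, and no measurement here bears on binding.

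The 9 probes had signals between 18.4 and 3216.4, against a lowest detected signal of 26.4 to 38.5 per array. All were detected over background (detection p below 0.05) on all 12 arrays, except for the KRT18 probe ILMN_1730848, which was detected on 8. Replicate arrays correlated at r = 0.991 to 0.994 over all probes, and the 95% interval of a log2 fold change was typically 0.34 wide on each side (median). Of the markers listed as present in this cell line, vimentin lay between 6872.5 and 12110, and CD44, AXL, CAV1 and MSN were detected on all arrays. Of those listed as low or absent, ESR1, PGR and CDH1 were detected on none. ERBB3 (38.1 to 67.8) and EPCAM (80.1 to 184.3) were also listed as low or absent, but were detected on all arrays. DOT1L itself was detected on 4 of 12 arrays and on none of the control and siRNA-1 arrays, so its silencing was not measured. In RNA from whole cultures, fewer cells that express a gene and less RNA per cell cannot be told apart.

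**Figure D1:**
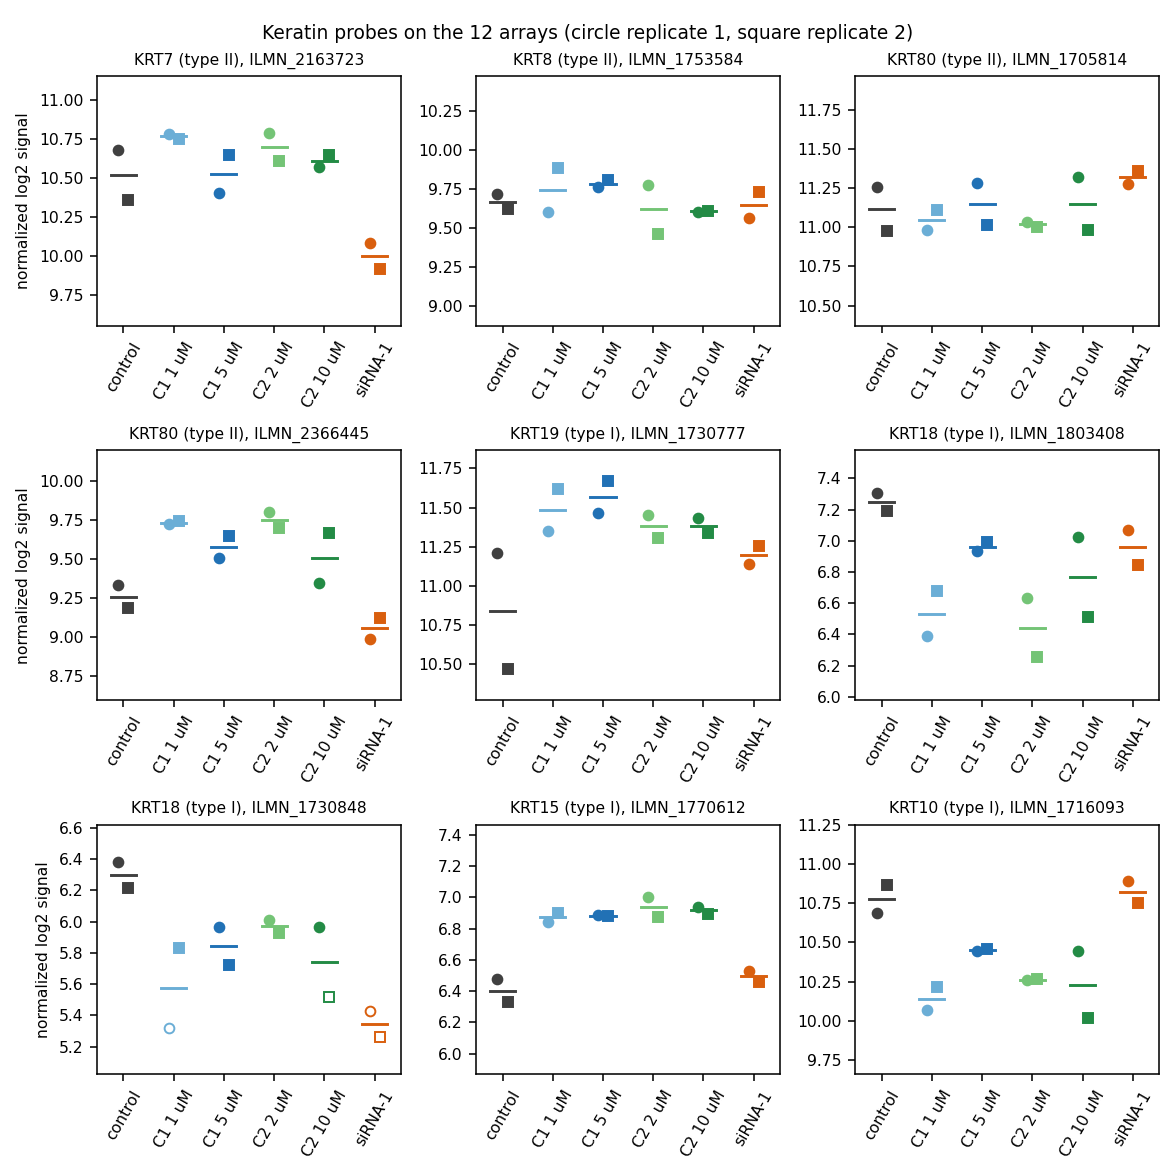
Normalized log2 signal (y axis, each panel spanning 1.6 log2 units) of the 9 keratin probes in the 6 groups (x axis; C1 is compound 1, C2 compound 2). Circles are replicate 1, squares replicate 2, lines the mean of the 2 arrays, and open symbols arrays on which the probe was not detected. KRT15 is higher and KRT10 lower on all 8 inhibitor arrays than on the control and siRNA-1 arrays, while KRT7 is lowest with siRNA-1.

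The keratins did not move as a group. In the mean of the 4 inhibitor groups (called the inhibitor mean), 5 of 9 keratin probes passed the test (limma, adjusted p below 0.05 over 17910 probes), against 11.1% of all probes: KRT15, KRT19 and 1 KRT80 probe rose, and KRT10 and 1 KRT18 probe fell. Their median log2 fold change was 0.02, against -0.06 for all probes. With siRNA-1, 2 of 9 keratin probes passed, KRT7 and the other KRT18 probe, and both fell, against 10.2% of all probes. The median was -0.02 against -0.05 for all probes. Over all probes, 966 rose and 1021 fell in the inhibitor mean, a split that became 1458 and 301 when arrays were centred on all probes rather than on detected ones.

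At single doses fewer keratins passed. Compound 1 gave 2 keratin calls at 1 μM (KRT15 and KRT10), where 5.25% of all probes were called, and 0 at 5 μM, where 2.17% were called. At 5 μM 5 keratin probes and 3425 of all probes had an unadjusted p below 0.05. Compound 2 gave 2 calls at 2 μM (KRT15 and KRT18), with 3.62% of all probes called, and 1 at 10 μM (KRT15), with 3.16%. No keratin probe and no other probe was called between the doses of either compound. At an unadjusted p below 0.05, the dose comparison of compound 1 held 1256 probes, including the KRT18 probe ILMN_1803408, and that of compound 2 held 562 and no keratin.

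Among the type I keratins, KRT15, a keratin of basal and follicle stem cells, had the clearest pattern. Its normalized log2 signals (background-corrected and set to a common median per array) were 6.48 and 6.33 on the control arrays, 6.84 and 6.90 with compound 1 at 1 μM, 6.89 and 6.88 at 5 μM, 7.00 and 6.87 with compound 2 at 2 μM, 6.94 and 6.90 at 10 μM, and 6.53 and 6.46 with siRNA-1. The 8 inhibitor arrays all lay above the control and siRNA-1 arrays, with no overlap, and the means of the 4 inhibitor groups fell between 6.87 and 6.94. KRT15 was 41.5% higher in the inhibitor mean than in the control (log2 0.50, SE 0.09, limma adjusted p = 0.00793). It also passed singly with compound 1 at 1 μM (log2 0.47, SE 0.12, adjusted p = 0.0403) and with compound 2 at 2 μM (log2 0.54, SE 0.12, adjusted p = 0.0342) and 10 μM (log2 0.52, SE 0.12, adjusted p = 0.0375), each in only 1 of 4 fits that left out 1 array. Compound 1 at 5 μM gave a log2 value of 0.48 with an adjusted p of 0.0591. With siRNA-1 the value was 0.09 (adjusted p = 0.677), and siRNA-1 lay below the inhibitor mean by a tested difference of -0.41 (SE 0.09, adjusted p = 0.00937). Signals of KRT15 were low, 64.2 to 130.5, though detected on every array.

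KRT10, the type I keratin of differentiating epidermis, moved the other way. Its normalized log2 signals were 10.69 and 10.87 in the control, 10.07 and 10.21 with compound 1 at 1 μM, 10.44 and 10.46 at 5 μM, 10.26 and 10.27 with compound 2 at 2 μM, 10.44 and 10.01 at 10 μM, and 10.90 and 10.75 with siRNA-1. The inhibitor arrays all lay below the control arrays, while the siRNA-1 arrays overlapped with them. KRT10 fell by 29.7% in the inhibitor mean (log2 -0.51, SE 0.12, adjusted p = 0.0214) and fell by 35.7% with compound 1 at 1 μM (log2 -0.64, SE 0.15, adjusted p = 0.0347), the latter in only 1 of 4 fits that left out 1 array. The other inhibitor groups had log2 values of -0.33, -0.52 and -0.55 with adjusted p from 0.068 to 0.26. With siRNA-1 KRT10 was at 0.05 (adjusted p = 0.889), and it was 1.47-fold higher there than in the inhibitor mean (log2 0.55, SE 0.12, adjusted p = 0.00718). With arrays centred on all probes, the fall in the inhibitor mean was -0.41 with an adjusted p of 0.0673. In the log2 values deposited by the authors it was -0.48 with an adjusted p of 0.0854.

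KRT19, the smallest keratin and one of ducts and glands, had the widest spread between the control arrays. Its normalized log2 signals were 11.21 and 10.46 in the control, 11.35 and 11.62 with compound 1 at 1 μM, 11.46 and 11.67 at 5 μM, 11.45 and 11.31 with compound 2 at 2 μM, 11.43 and 11.33 at 10 μM, and 11.14 and 11.25 with siRNA-1. All inhibitor arrays were above both control arrays, although they exceeded the higher control array by less than the 0.75 that separated the 2 control arrays. The inhibitor mean was 1.53-fold above the control (log2 0.62, SE 0.16, adjusted p = 0.0339), and no single dose passed (log2 0.54 to 0.73, adjusted p from 0.0889 to 0.161). The value was 0.24 (adjusted p = 0.441) without control replicate 2 and 0.99 (adjusted p = 0.00314) without control replicate 1. With siRNA-1 KRT19 was at 0.36 (SE 0.21, adjusted p = 0.318), and the difference from the inhibitor mean was -0.26 (95% interval -0.61 to 0.10).

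KRT18, the type I partner of KRT8, was read by 2 probes that differed in which treatment passed. The brighter probe, ILMN_1803408, had normalized log2 signals of 7.30 and 7.19 in the control, 6.39 and 6.68 with compound 1 at 1 μM, 6.93 and 6.99 at 5 μM, 6.63 and 6.25 with compound 2 at 2 μM, 7.03 and 6.51 at 10 μM, and 7.07 and 6.84 with siRNA-1. All 10 treated arrays were below both control arrays. It fell by 42.7% with compound 2 at 2 μM (log2 -0.80, SE 0.19, adjusted p = 0.0432; held in 0 of 4 fits without 1 array) and its level in the inhibitor mean fell by 32.6% (log2 -0.57, SE 0.15, adjusted p = 0.0334), and was at -0.29 (adjusted p = 0.385) with siRNA-1.

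The dimmer KRT18 probe, ILMN_1730848, had signals of 66.5 and 58.1 in the control and 22.6 and 18.4 with siRNA-1. The siRNA-1 signals were not above background, which leaves only a bound: KRT18 by this probe was at least 1.67-fold lower with siRNA-1 than in the control (adjusted p = 0.00829 for the fitted values). With compound 1 at 1 μM and with compound 2 at 10 μM only 1 of 2 arrays measured it. In the inhibitor mean its log2 value was -0.52 (SE 0.15), just outside the threshold at an adjusted p of 0.050. The RefSeq gene table lists 68 pseudogenes named after KRT18 and 52 after KRT8, and probe sequences were not used here, so how far these probes also read such copies was not tested.

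Among the type II keratins, KRT7, a keratin of glandular ducts, fell with siRNA-1 and was called with none of the inhibitor groups. Its normalized log2 signals were 10.68 and 10.36 in the control, between 10.40 and 10.79 on the 8 inhibitor arrays, and 10.08 and 9.92 with siRNA-1. The siRNA-1 arrays lay below all the others, and the inhibitor arrays overlapped with the control. KRT7 fell by 30.2% with siRNA-1 (log2 -0.52, SE 0.15, adjusted p = 0.0441), and lay below the inhibitor mean by a tested difference of -0.65 (SE 0.12, adjusted p = 0.00244). In the inhibitor mean it was at 0.13 (95% interval -0.12 to 0.38).

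KRT80, a type II keratin found near desmosomes, also had probes that differed. ILMN_2366445 had normalized log2 signals of 9.33 and 9.18 in the control, 9.72 and 9.74 with compound 1 at 1 μM, 9.51 and 9.64 at 5 μM, 9.80 and 9.69 with compound 2 at 2 μM, 9.34 and 9.66 at 10 μM, and 8.99 and 9.12 with siRNA-1. The inhibitor arrays were all above the control arrays and the siRNA-1 arrays all below them, although the lowest inhibitor array, at 9.34, was close to the higher control array. This probe was 1.30-fold higher in the inhibitor mean (log2 0.38, SE 0.11, adjusted p = 0.0441), and siRNA-1 lay below the inhibitor mean by -0.58 (SE 0.11, adjusted p = 0.00333). The other KRT80 probe, ILMN_1705814, was called in none of the comparisons, with group means within 0.30 of each other and log2 values of -0.03 in the inhibitor mean and 0.20 with siRNA-1.

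KRT8, the type II partner of KRT18, stayed within 0.18 log2 units over the 6 group means. Its signals ran from 687.7 to 959.6, its fold changes against the control from -0.06 to 0.12, and it was called in none of the 9 comparisons. The 95% interval of the inhibitor mean, -0.23 to 0.27, leaves room for changes of that size.

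**Figure D2:**
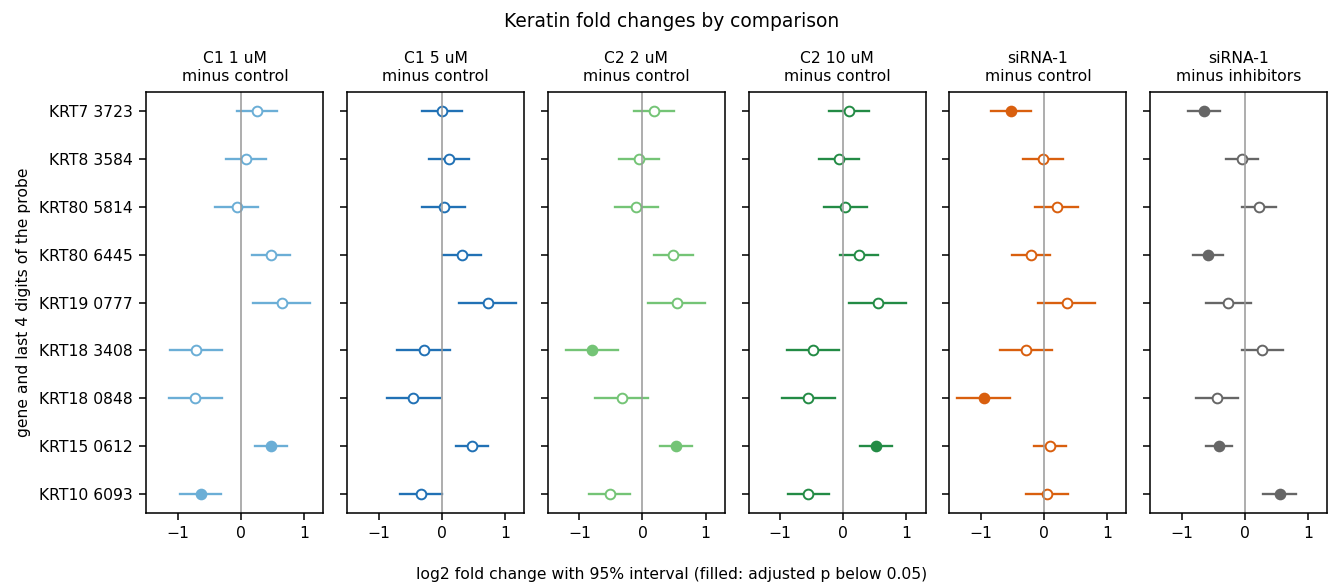
Log2 fold change (x axis) with its 95% interval for each of the 9 keratin probes (y axis) in 6 comparisons, with filled circles at an adjusted p below 0.05. KRT15 lies at 0.47 to 0.54 in all 4 inhibitor panels and at 0.09 with siRNA-1, and KRT7 and the KRT18 probe ILMN_1730848 are the calls of siRNA-1 against the control.

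The 2 kinds of treatment were set against each other directly. Between siRNA-1 and the mean of the 4 inhibitor groups, 4 of 9 keratin probes passed, KRT10 higher and KRT7, KRT15 and KRT80 lower with siRNA-1, where 19.9% of all probes passed. The keratin median was -0.26, against 0.01 for all probes. The inhibitor and siRNA-1 comparisons share the same 2 control arrays. The estimate of this contrast does not use them, although they enter the shared estimate of the spread. It compares 14 days of inhibitor with 7 days after transfection. Without siRNA-1 replicate 1 only KRT7 passed (log2 -0.73, adjusted p = 0.0209), and without replicate 2 KRT80 (-0.65, adjusted p = 0.028) and KRT10 (0.62, adjusted p = 0.0459) passed.

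The inhibitor calls depended on single arrays, and most of all on control replicate 2. Without it, 0 of 9 keratin probes passed in the inhibitor mean or in any single-dose comparison, and in the mean 158 of all probes passed in place of 1987. Each single-dose keratin call was also lost without either array of its own dose group. The fit in which the single-dose calls of KRT15 and KRT10 held was the one without control replicate 1. In the inhibitor mean without control replicate 2, KRT15 was at 0.43, KRT10 at -0.42, KRT18 ILMN_1803408 at -0.63 and KRT80 ILMN_2366445 at 0.31. Their directions held with either control array alone. Without control replicate 1, KRT15 (0.57, adjusted p = 0.0133) and KRT10 (-0.60, adjusted p = 0.0362) passed with KRT19, and KRT18 (-0.51, adjusted p = 0.144) and KRT80 (0.46, adjusted p = 0.0669) did not. Over the 10 fits that each left out 1 control or inhibitor array, KRT15 and KRT10 passed in 9, KRT18 in 6, KRT19 in 5 and KRT80 in 1.

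**Figure D3:**
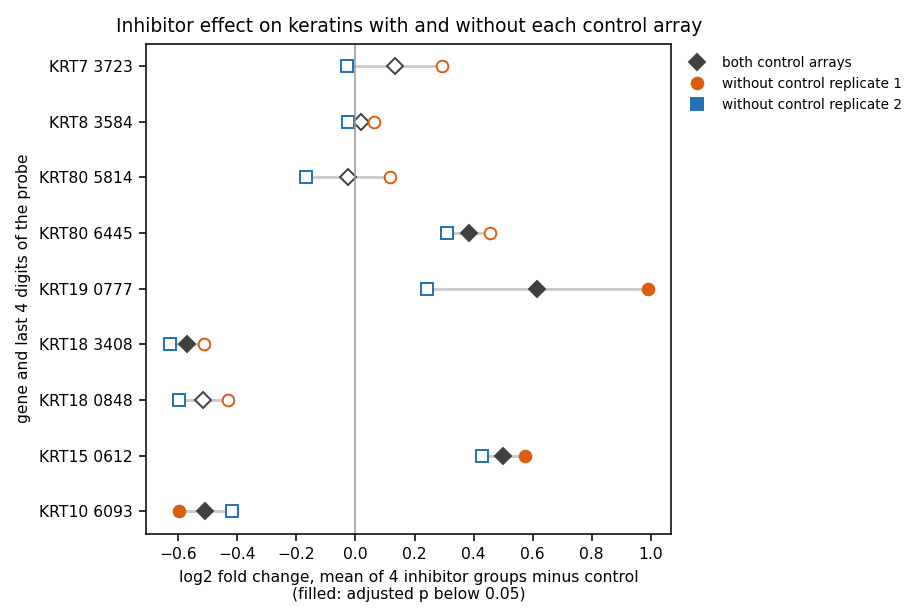
Log2 fold change of the inhibitor mean against the control (x axis) for the 9 keratin probes (y axis) with both control arrays (diamonds), without control replicate 1 (circles) and without control replicate 2 (squares), filled at an adjusted p below 0.05. No square is filled, and KRT19 moves from 0.24 to 0.99 with the control array used.

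The siRNA-1 calls also rested on few arrays. KRT7 against the control passed in 1 of 4 fits that left out 1 array, the one without control replicate 2, with log2 values from -0.68 to -0.36. The KRT18 probe ILMN_1730848 passed in 2 of 4, and was lost without control replicate 1 and without siRNA-1 replicate 2, with values from -1.03 to -0.87. KRT19 passed with siRNA-1 without control replicate 1 (0.73).

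Of 45 other keratins 42 had a probe, and only 2 of those, KRT34 and KRT83, passed the detection filter. KRT34, a type I hair keratin, moved in opposite directions with the 2 kinds of treatment. Its signals were 56.3 and 87.0 in the control, 101.0 to 165.7 on the 8 inhibitor arrays, and 11.4 and 18.5 with siRNA-1, where it was not detected. All inhibitor arrays lay above the control and both siRNA-1 arrays below it. It was at least 1.84-fold lower with siRNA-1 than in the control (adjusted p = 0.000904 for the fitted values) and at least 2.56-fold to 3.44-fold lower than in the 4 inhibitor groups (adjusted p = 6.66e-06 for the fitted difference from their mean). Both siRNA-1 calls held in every fit that left out 1 array of the groups compared. KRT34 rose with compound 1 at 5 μM (log2 0.90, SE 0.18, adjusted p = 0.0251) and in the inhibitor mean (log2 0.63, SE 0.14, adjusted p = 0.0189), but not when control replicate 1 was left out (0.65 at that dose, with adjusted p = 0.0682; 0.37 in the mean, with adjusted p = 0.15). The call at 5 μM was also lost without either array of that group. KRT83, a hair keratin of type II, was called in none of the comparisons. KRT5 and KRT14, the pair of basal epithelial cells, were detected on 0 of 12 arrays.

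The desmosome and hemidesmosome genes, which anchor keratin filaments, were measured for 22 of 25, with 15 tested. In the inhibitor mean 3 of the 15 rose and 0 fell, where 11.1% of all probes passed, with a median log2 fold change of 0.25 against -0.06 for all probes. PPL, the plakin periplakin that links keratins to desmosomes, had normalized log2 signals of 6.57 and 6.36 in the control, 7.32 to 7.81 on the 8 inhibitor arrays, and 7.17 and 6.91 with siRNA-1. The control arrays were the lowest and the inhibitor arrays the highest, without overlap. PPL rose with each inhibitor group, from 1.04 (SE 0.17, adjusted p = 0.00961) with compound 1 at 1 μM to 1.21 (SE 0.17, adjusted p = 0.00427) at 5 μM. In the inhibitor mean (1.09, SE 0.14, adjusted p = 0.000957) it still passed without control replicate 2 (0.98, adjusted p = 0.0435), while none of the single doses did.

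ITGB4 and ITGA6, the 2 subunits of the hemidesmosome integrin, also rose in the inhibitor mean, and depended on the control arrays. ITGB4 was at 9.08 and 8.05 in the control, 9.42 to 9.81 on the inhibitor arrays, and 9.08 and 9.14 with siRNA-1. Its inhibitor mean was 1.04 above the control (SE 0.19, adjusted p = 0.00832). Fitted to control replicate 2 alone the value was 1.55 (adjusted p = 0.000153), and to control replicate 1 alone 0.52 (adjusted p = 0.0944). ITGA6 was at 6.54 and 5.99 in the control, 6.68 to 7.22 on the inhibitor arrays, and 6.77 and 7.26 with siRNA-1. Its inhibitor mean was 0.75 higher (SE 0.18, adjusted p = 0.0237), a call lost without control replicate 2 (0.48). Both siRNA-1 arrays also lay above both control arrays, although ITGA6 was not called with siRNA-1.

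With siRNA-1 against the control 1 anchor gene rose, JUP, which encodes the desmosomal plaque protein plakoglobin, and 1 fell (PKP2, named after its value was seen), a count near the 10.2% of all probes that passed. JUP was at 8.51 and 8.35 in the control, 8.57 to 8.81 on the inhibitor arrays, and 9.44 and 9.61 with siRNA-1, above all others. Its change of 1.09 (SE 0.13, adjusted p = 0.000209) held in every fit that left out 1 array of the groups compared (1.00 to 1.18). Against the inhibitor mean siRNA-1 had 1 anchor gene higher, JUP, and 5 lower (DSP, DSC2, PLEC, PPL and LAMB3, named after their values were seen), where 19.9% of all probes passed. The PPL difference (-0.52, SE 0.14, adjusted p = 0.0204) was lost without siRNA-1 replicate 1 (-0.64, adjusted p = 0.0591) and without replicate 2 (-0.39, adjusted p = 0.239).

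**Figure D4:**
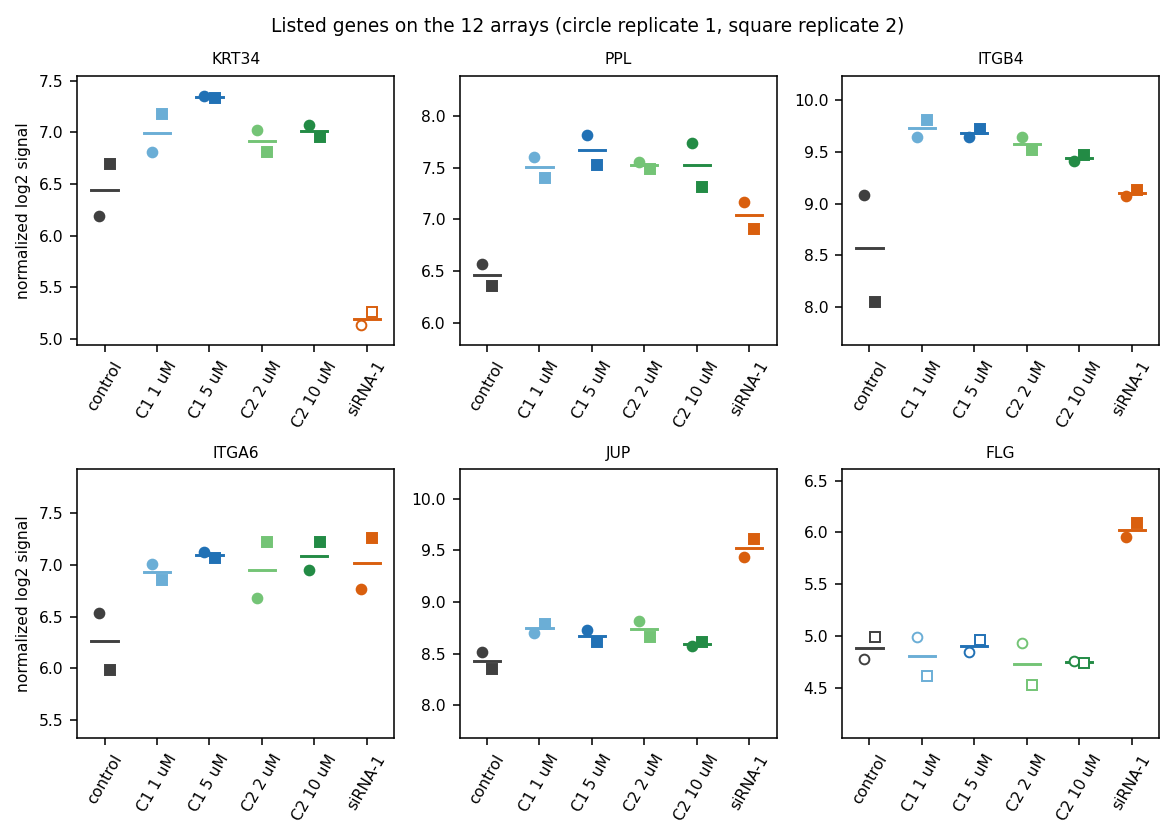
Normalized log2 signal (y axis, each panel spanning 2.6 log2 units) of KRT34, 4 anchor genes and FLG in the 6 groups (x axis; C1 is compound 1, C2 compound 2), with circles for replicate 1, squares for replicate 2, lines for means and open symbols where the probe was not detected. PPL is higher on all 8 inhibitor arrays than in the control, JUP and FLG are highest with siRNA-1, and KRT34 is undetected there.

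Of 15 other intermediate filament genes, all with a probe, 8 were tested, and 1 rose and 1 fell in the inhibitor mean, where 11.1% of all probes passed. NES, which encodes nestin, rose in every treated group, by log2 values from 0.65 (SE 0.14, adjusted p = 0.0336) with compound 2 at 2 μM to 0.90 (SE 0.14, adjusted p = 0.00804) at 10 μM. Under siRNA-1 the rise was 0.79 (SE 0.14, adjusted p = 0.00376). The siRNA-1 call held in all 4 fits that left out 1 array, and none of the inhibitor calls held without control replicate 2 (inhibitor mean 0.63, adjusted p = 0.0717). LMNB1, the nuclear lamin B1, fell in the inhibitor mean (-0.47, SE 0.12, adjusted p = 0.0273), a call lost without control replicate 2 (-0.35). LMNB1 was also higher with siRNA-1 than in the inhibitor mean (0.53, SE 0.12, adjusted p = 0.00863). The estimate of that difference uses no control array. Among the 10 fits that left out 1 inhibitor or siRNA-1 array, the call was lost only without siRNA-1 replicate 1 (0.44). VIM, the vimentin gene, and BFSP1, a filament gene of the eye lens, were called only as lower in siRNA-1 than in the inhibitor mean (-0.35, adjusted p = 0.0396, and -0.49, adjusted p = 0.043). Of the 10 fits without 1 array, the VIM call held in 1 and the BFSP1 call in 3. Neither held without siRNA-1 replicate 1 or without replicate 2.

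Of 20 genes of keratinocyte differentiation, 19 had a probe and 8 were tested, and 0 were called in the inhibitor mean, where 11.1% of all probes passed, with a median of -0.13 against -0.06 for all probes. FLG, filaggrin, which bundles keratin filaments in the epidermis, was not detected on the 10 control and inhibitor arrays and had signals of 42.2 and 49.0 with siRNA-1. It was at least 1.25-fold higher there than in the control. FLG entered the test only through siRNA-1, the group where it was high, so no p is given for it. CNFN, cornifelin of the cornified envelope, was lower in siRNA-1 than in the inhibitor mean (-0.37, SE 0.12, adjusted p = 0.0415), a call that held in 0 of the 10 fits without 1 array.

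Markers of other cell types were read beside these groups. Of 8 such markers 7 had a probe, and the summed signal of the 7 was 55.7 to 102.8 in the control, 105.1 to 150.8 on the inhibitor arrays and 176.5 to 212.0 with siRNA-1. PTPRC, CDH5, LUM, KRT5 and KRT14 were detected on none of the arrays, and DCN on 9. The rise lay in PECAM1, a surface protein of endothelium and platelets, with signals of 21 and 49.2 in the control, 78.4 to 114.8 on the inhibitor arrays and 145.8 and 169.9 with siRNA-1 (log2 1.06, adjusted p = 0.00593 in the inhibitor mean, and 1.85, adjusted p = 0.000314 with siRNA-1). Its part in the keratin, anchor gene and KRT34 values was not tested.

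Genes with patterns most like those of the 2 members with the widest range of group means were found by the mean absolute difference of the 6 centred group means. KRT18 by ILMN_1803408 (range 0.80) was closest to MICALL1 (0.04), MAD2L1BP (0.06) and ZNF577 (0.06). KRT7 (range 0.77) was closest to LPP (0.03), SGSH (0.03) and SYT15 (0.04). These are the nearest of many genes over 6 points that share the same arrays, and are given as a description.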

How the data were processed

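RNA of MDA-MB231 cells was read on 12 Illumina HT-12 v4 arrays, 2 in each of 6 groups taken from the labels. The intensity values, as deposited by the authors, are linear bead signals from BeadStudio (version not given in the sources used here), background-subtracted but not normalized. The detection p-values deposited beside them stand in another order than the signals (rank correlation -0.0041 to 0.0029 in the same line) and were assigned by rank within each array, the highest signal taking the lowest p. The log2 values of the series matrix, as deposited by the authors, are the log2 signal, floored at 1, less the array median (largest difference 5e-09). For compound 2 at 10 μM its 2 columns are exchanged against the table. They served as an alternative.

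Of 47324 lines, 2 damaged ones were left out. Signals were corrected by normexp in limma 3.58.1 (R 4.3.3), where detection p stood in for the unlisted negative beads and 16 was the offset, log2-transformed, and set to one median over 11807 probes (detection p below 0.01 on every array). The 17910 probes with detection p below 0.05 on both arrays of some group were tested in 1 linear model with a mean per group (6 residual and 5.59 prior degrees of freedom), and p-values were adjusted by Benjamini and Hochberg over all of them per comparison. The median signal per array was 9.9 to 14.9 and 34.0% to 36.7% of probes were detected; 2 arrays per group limit the precision. For a probe undetected on both arrays of a group the fold is a bound, in which each undetected array takes the higher of its lowest detected signal and the probe's own.

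Symbols came from the array annotation, updated through Entrez identifiers (30113 probes with 1 symbol, 8 with several, 17201 with none); 4 probes of another gene that shares an older name with KRT17 were left out. Named were all member probes, up to 4 called genes of each list with the largest change, by the brightest tested probe of the gene, and the 3 genes most alike for 2 members; KRT83 and the marker genes were named outside this rule. Members, lists and tests were chosen with earlier results of these data known. Promoter bases came from the RefSeq table of GRCh38.p14, which held 2 of the 10 genes. Alternatives were another background handling, offset, centring, normalization, filter, table and set of arrays, a block for replicate number, and fits without each array. Figures used Python 3.11.15 and matplotlib 3.10.9.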

Additional observations from a re-analysis of the deposited data

How the results depend on the processing

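Counts of keratin probes called, given in the order compound 1 (1 then 5 μM), compound 2 (2 then 10 μM), siRNA-1, inhibitor mean and siRNA-1 against inhibitors, were 2, 0, 2, 1, 2, 5 and 4. They were 1, 1, 1, 1, 1, 2 and 5 with signals below 1 set to 1 and no background correction, 5, 1, 3, 1, 2, 6 and 4 with an offset of 50, 3, 2, 3, 1, 2, 4 and 5 when centred on all probes, 3, 1, 2, 1, 1, 5 and 5 after quantile normalization, 1, 0, 0, 1, 1, 1 and 5 with the series matrix, 1, 0, 1, 0, 1, 4 and 4 without the detection filter, and 0, 0, 0, 0, 1, 4 and 4 when only the arrays compared were fitted. Both dose comparisons gave 0 throughout. In the inhibitor mean, the 1 call with the series matrix was KRT15, and the 2 calls with signals below 1 set to 1 were KRT15 and KRT10. KRT19, KRT18 and KRT80 were thus not called there under either. The cause of these differences was not tested. Centring on all probes raised the median of all probes by 0.12, 0.11, 0.12 and 0.05 in the 4 inhibitor comparisons; with compound 1 at 1 μM the keratin calls went from 1 higher and 1 lower to 3 higher and 0 lower.

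With replicate number as a block the counts were 1, 0, 2, 1, 1, 4 and 4. The deviations of same-numbered arrays correlated between groups at r -0.38 to 0.21 over 15 pairs of groups. With only 1 replicate difference per group, this cannot show whether the numbers mark a shared batch or culture. Leaving out each array in turn gave 0 to 3, 0 to 2, 0 to 2, 0 to 2, 0 to 2, 0 to 5 and 1 to 5 calls, and 0 for both dose comparisons. Of 1080 recomputed keratin fold changes, 62 changed sign, and none of these was called before or after. The listed genes were refitted under the same alternatives after their values had been seen, and each alternative lost 1 to 10 of their calls and reversed none. In the 6 settings, the block among them, that left siRNA-1 with 1 call, KRT18 kept it and KRT7 lost it (adjusted p from 0.0556 to 0.182). Slide as a block was not run, since no slide is named in the files. With 2 arrays per group, weak probes (KRT15 and both KRT18 probes) lie closest to background.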
